A study of Mus musculus with 2 samples.

Results

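Uncx, Adamts18, Bahcc1, Ddit4 and Klrb1c are 5 of 21938 annotated protein-coding genes, and they were selected because they had some of the highest counts of distal open-chromatin sites in mouse embryonic hindbrain. The counted feature was a peak of DNase I cutting that was distal, with its midpoint more than 1 kb from every annotated transcription start site, and shared, overlapping a peak of the other library by at least 1 bp. All peaks and hotspots, the wider regions of enriched cutting, within 50 kb of a start site of these genes were taken, 529 peaks in all, 259 of the 263679 peaks of replicate 1 and 270 of the 148804 peaks of replicate 2. The windows held 178 of 231347 hotspots in replicate 1 and 206 of 133205 in replicate 2. Because the count of distal shared peaks chose the genes, it is given below as a description with no test, and so are the spacing and the hotspot cover that go with it.

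DNase-seq was run on hindbrain tissue from healthy embryos at embryonic day 14.5 of the mouse strain B6NCrl, with males and females pooled. The labels give 1 group with 2 biological replicates and no other tissue, stage or treatment. The replicates have separate biosample and library records but the same donor record, and the labels do not say whether they came from separate litters. Each value therefore describes these 2 libraries. The sources do not say what a peak score counts or how it relates to sequencing depth, and the depth itself is unknown. Scores were compared as ranks, the percentile of a peak among all peaks of its own library, and the precision behind single scores cannot be given. Promoter peaks at marker genes were counted beside the tissue label. All 12 hindbrain and neuron genes listed, such as Tubb3, Dcx, Hoxa2 and Hoxb2, had a promoter peak in both libraries, against 1 of 12 natural killer and lymphoid genes, Prf1, and 65% of all protein-coding genes. Ncr1, Nkg7, Gzma, Gzmb, Klrk1, Klrd1, Ptprc, Cd3e, Il2rb and Il7r had none in either library, and Tbx21 had one in replicate 1 alone. Promoter peaks in both libraries were also found at all 11 BAH domain genes and all 12 stress and mTORC1 genes listed further on. The full count at the hindbrain and neuron genes therefore cannot tell hindbrain from other tissue.

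DNase I cuts most readily where DNA is free of nucleosomes, and distal sensitive sites are often enhancers, insulators or silencers, the elements through which transcription factors control a gene from afar. Developmental regulators are known for wide domains with many such elements, which tend to be separate unique sequences. A dense group of calls can also come from repeated or duplicated sequence, or from a broad stretch of weak signal that a caller divides into many peaks. Uncx encodes a paired-type homeodomain transcription factor of somites and the nervous system. Bahcc1 encodes a chromatin protein with a BAH domain. Ddit4 encodes REDD1, a stress-induced inhibitor of mTORC1 signalling. Adamts18 encodes a secreted metalloproteinase of the extracellular matrix. Klrb1c encodes NK1.1, an activating receptor of natural killer cells, and lies in the natural killer gene complex, a cluster of lectin-like receptor genes that arose by duplication.

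The strongest distal shared peak of each gene is printed as an example of the sequences counted. It is the peak with the highest mean of its ranks in both libraries, at the position in replicate 1, from the plus strand of GRCm38.p6 (mm10 coordinates). The reference is of strain C57BL/6J and not of B6NCrl. Capitals mark matches on either strand to any of 8 short motifs that are spelled out further on. The Uncx peak lay at chr5:139558596-139558745, between genes. The Adamts18 peak lay at chr8:113844856-113845005 and overlapped coding sequence of the gene itself. The Bahcc1 peak lay at chr11:120189996-120190145, between genes and just upstream of the start of the transcript 2810410L24Rik at chr11:120188751. The Ddit4 peak lay at chr10:59950736-59950885 and overlapped coding sequence of Ddit4. Its midpoint was 1023 bp from the Ddit4 start, just past the 1 kb limit, so the Bahcc1 and Ddit4 examples both lie near a start site. The Klrb1c peak lay at chr6:128803156-128803305, in an intron of the gene model Gm44511.
Uncx: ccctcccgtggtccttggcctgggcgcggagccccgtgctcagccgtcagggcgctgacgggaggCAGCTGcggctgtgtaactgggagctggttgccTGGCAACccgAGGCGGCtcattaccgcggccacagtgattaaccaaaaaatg
Adamts18: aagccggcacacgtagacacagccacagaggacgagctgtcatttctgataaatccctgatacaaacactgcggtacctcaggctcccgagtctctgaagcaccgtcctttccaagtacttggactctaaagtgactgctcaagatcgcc
Bahcc1: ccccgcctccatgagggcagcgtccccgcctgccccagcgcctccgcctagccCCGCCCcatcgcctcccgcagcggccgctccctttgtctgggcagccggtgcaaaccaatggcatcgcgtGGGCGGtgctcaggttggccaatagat
Ddit4: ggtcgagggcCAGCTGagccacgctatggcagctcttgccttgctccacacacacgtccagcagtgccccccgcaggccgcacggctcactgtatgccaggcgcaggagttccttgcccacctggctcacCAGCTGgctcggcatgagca
Klrb1c: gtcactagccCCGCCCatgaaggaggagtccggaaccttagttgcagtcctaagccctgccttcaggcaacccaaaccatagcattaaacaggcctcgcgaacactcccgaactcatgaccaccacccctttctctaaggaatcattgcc
In replicate 1 these peaks scored 122 at Uncx, 68 at Adamts18, 143 at Bahcc1, 111 at Ddit4 and 144 at Klrb1c. The same peaks scored 71, 41, 123, 75 and 114 in replicate 2. The Uncx, Bahcc1 and Ddit4 sequences had 66.0%, 71.3% and 66.7% GC, against 52.0% at Adamts18, 54.7% at Klrb1c and a median of 50% over all 81031 distal shared peaks. The Adamts18 peak matched none of the motifs, which says only that those letters are not in its 150 bases.

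3 further sequences are single examples from Adamts18 and Klrb1c, and they need not be typical of the peaks there. The first is one of the weakest peaks of the Adamts18 stretch described below, at chr8:113812836-113812985 in an intron. It scored 9 and 2 in replicates 1 and 2, where the lowest scores of distal shared peaks in the stretch were 6 and 2. The others are the left and right peaks of a duplicated group at Klrb1c, at chr6:128760836-128760985 and chr6:128799576-128799725, 38740 bp apart on the same strand and identical at 95.3% of positions. None of the 3 held a motif match.
Adamts18 weak peak: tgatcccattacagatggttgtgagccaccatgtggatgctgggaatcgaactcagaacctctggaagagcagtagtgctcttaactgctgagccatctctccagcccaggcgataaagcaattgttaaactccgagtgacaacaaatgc
Klrb1c left copy: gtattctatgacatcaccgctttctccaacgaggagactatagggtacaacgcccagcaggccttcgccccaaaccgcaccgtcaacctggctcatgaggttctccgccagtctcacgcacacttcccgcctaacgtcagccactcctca
Klrb1c right copy: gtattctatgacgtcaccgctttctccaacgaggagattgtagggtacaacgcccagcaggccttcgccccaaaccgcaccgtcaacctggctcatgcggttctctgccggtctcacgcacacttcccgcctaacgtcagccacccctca

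Within 50 kb, Uncx had 43 distal shared peaks, Adamts18 37, Bahcc1 37, Ddit4 28 and Klrb1c 29, against a median of 3 over all protein-coding genes, whose upper quartile was 6. By this count they ranked 1, 4, 4, 17 and 14. Per 100 kb of window, which removes the gain of genes with many start sites, they ranked 1, 2, 4, 10 and 9. These 5 are not the only genes with such counts. Outside their windows, the 5 highest counts were 41 at Auts2 and at Mid1, 36 at Btn1a1, 34 at Rbfox3 and 33 at Gm49450. Per 100 kb these had 9.33 at Auts2, 11.7 at Mid1, 36.0 at Btn1a1, 16.8 at Rbfox3 and 33.0 at Gm49450. The chosen genes had 42.8 at Uncx, 37.0 at Adamts18, 35.7 at Bahcc1, 28.0 at Ddit4 and 29.0 at Klrb1c. In the selection there was no threshold on the count, and several genes with counts between those of Bahcc1 and Ddit4 were not chosen.

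**Figure D1:**
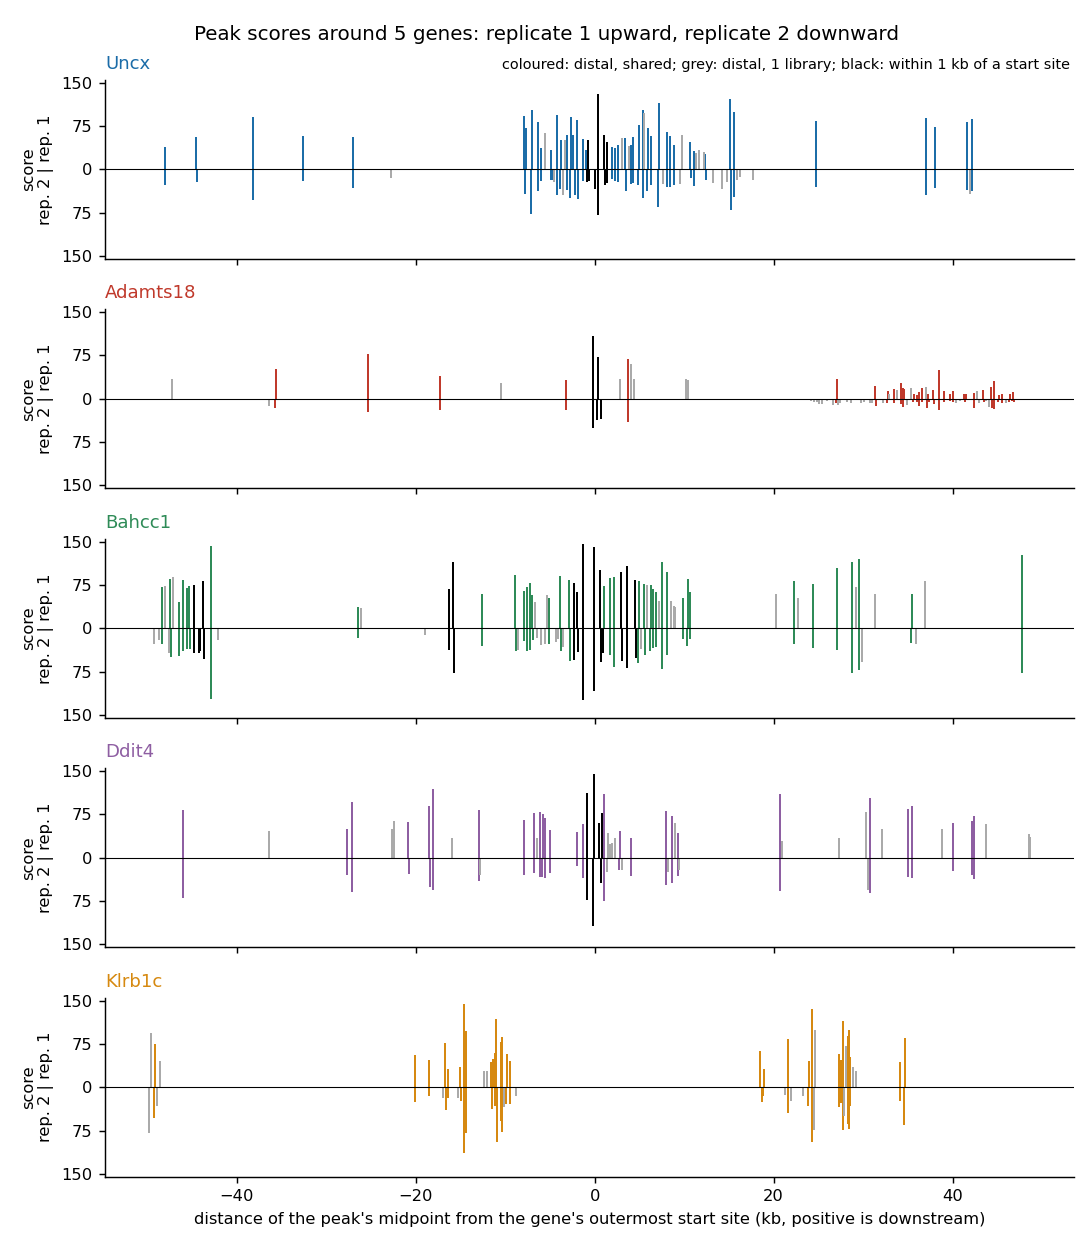
Score of every peak (y axis, replicate 1 upward and replicate 2 downward) against the distance of its midpoint from the outermost start site (x axis, kb). Coloured lines are distal shared peaks, grey lines distal peaks of 1 library and black lines peaks within 1 kb of any start site. Uncx peaks crowd around the gene, the Adamts18 crowd is low and lies 27 to 47 kb downstream, and Klrb1c has no black line.

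The 5 groups of peaks differed in where they lay. At Uncx, 30 of 43 distal shared peaks fell within 19210 bp that surround the gene, from -7923 to 11137 bp relative to its outermost start. At Bahcc1, 21 of 37 fell within 19670 bp around the start, from -8876 to 10644 bp, and at Ddit4 14 of 28 fell within 17330 bp, from -7877 to 9303 bp. The dense part of Adamts18 lay away from its promoter: 32 of 37 peaks fell between 27044 and 46724 bp downstream of the start, and only 2 lay within 5 kb of it. At Klrb1c 15 of 29 fell between -9430 and -20110 bp, and none lay within 5 kb of the start. By annotation, 26 of the Uncx peaks and 26 of the Ddit4 peaks were intergenic, 32 of the Adamts18 peaks and 19 of the Bahcc1 peaks were intronic, and the Klrb1c peaks divided into 14 intergenic and 15 intronic ones.

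The promoters separated Klrb1c from the others. The promoter of Uncx had peaks scoring up to 131 in replicate 1 and 79 in replicate 2, that of Adamts18 up to 109 and 51, that of Bahcc1 up to 141 and 108 and that of Ddit4 up to 145 and 119. Klrb1c had no peak within 1 kb of its start in either library, nor had the other genes that start in its window, Klrb1b, Gm44511 and the pseudogene Gm43907. The Bahcc1 window held further promoter peaks. The non-coding transcript 2900052L18Rik, which starts at -1362 bp relative to Bahcc1, had a best score of 145 and 124 in replicates 1 and 2, the antisense transcripts Gm11770 and Gm11772 had 115 and 77, and 107 and 69, and 2810410L24Rik had 82 and 54. The miRNA gene Gm47297 and, in the Uncx window, the long non-coding RNA 4930500L23Rik had none. In the annotation used, no other gene starts in the windows of Adamts18 and Ddit4.

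Neighbouring peaks were close at all 5 genes. The median gap between midpoints was 650 bp at Uncx, 650 bp at Adamts18, 910 bp at Bahcc1, 1760 bp at Ddit4 and 460 bp at Klrb1c, against 12800 bp over all distal shared peaks. Over all distal peaks of replicate 1 the median gap was 480 bp at Uncx, 390 bp at Adamts18, 480 bp at Bahcc1, 910 bp at Ddit4 and 400 bp at Klrb1c, and over those of replicate 2 520, 400, 540, 630 and 380 bp, so the wide gap of Ddit4 narrowed most when unshared peaks were kept. Among the 1973 genes with 10 or more distal shared peaks the median of this gap was 4160 bp. Gaps of 500 bp or less made up 17 of 42 at Uncx, 16 of 36 at Adamts18, 11 of 36 at Bahcc1, 5 of 27 at Ddit4 and 15 of 28 at Klrb1c, against 9.43% of all gaps. When peaks within 500 bp were joined, 26 runs remained at Uncx, 21 at Adamts18, 26 at Bahcc1, 23 at Ddit4 and 14 at Klrb1c. Of the 1973 genes, 5 had more runs than Uncx and Bahcc1, 17 more than Ddit4, 32 more than Adamts18 and 187 more than Klrb1c. In proportion to the count, joining left the fewest runs at Klrb1c and the most at Ddit4.

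Some peaks also overlap each other within a library. Among distal shared peaks of replicate 1 this was most frequent at Adamts18 and Klrb1c. All deposited peaks are 150 bp wide, so midpoints nearer than that overlap. Gaps under 150 bp between distal shared peaks numbered 7 of 36 at Adamts18 and 3 of 28 at Klrb1c, against 1.32% of all gaps. There were 0 of 42 at Uncx, 0 of 36 at Bahcc1 and 0 of 27 at Ddit4, where so small a share would give few or none. Counting overlap with any peak of replicate 1, 11 distal shared peaks at Adamts18, 5 at Klrb1c and 2 at Uncx overlapped another peak, against 2.78% of all distal shared peaks. With unshared distal peaks kept, replicate 1 had 4 such peaks at Uncx, 11 at Adamts18, 2 at Bahcc1, 2 at Ddit4 and 5 at Klrb1c. In replicate 2 these counts were 8, 8, 0, 2 and 5, so Uncx equalled Adamts18 there. No share over all distal peaks is given for these counts. Adamts18 had a run of 4 peaks within 350 bp, from 41524 to 41324 bp downstream of its start.

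**Figure D2:**
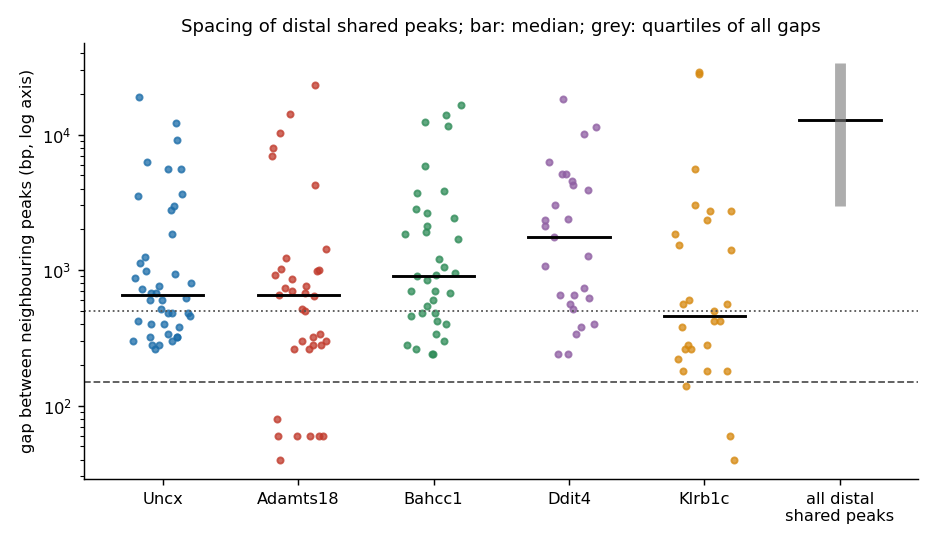
Gap between midpoints of neighbouring distal shared peaks (y axis, bp, log axis) for the 5 genes and for all distal shared peaks. Points are single gaps, bars medians, the grey bar the quartiles over all gaps (2960 and 34060 bp), the dotted line the 500 bp joining distance and the dashed line the peak width of 150 bp. Points under the dashed line occur at Adamts18 and Klrb1c.

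Peak scores set Adamts18 apart from the other 4. Its distal shared peaks had a lowest, median and highest score of 6, 13 and 78 in replicate 1. At Uncx these were 27, 60 and 122, at Bahcc1 37, 77 and 143, at Ddit4 35, 74 and 119 and at Klrb1c 31, 60 and 144. In rank within replicate 1, the median was at the 0.156 percentile at Adamts18, 66.4 at Uncx, 80.01 at Bahcc1, 78.1 at Ddit4 and 66.4 at Klrb1c, against 73.6 over all distal shared peaks. Ranks of the overlapping peaks in replicate 2 had medians of 2.29 at Adamts18, 55.1 at Uncx, 66.2 at Bahcc1, 58.7 at Ddit4 and 64.9 at Klrb1c, against 55.1 over all. Among the 1973 genes with 10 or more distal shared peaks, none had a lower median score than Adamts18 in either library. In replicate 1, 1744 of them had a higher median score than Uncx, 1744 than Klrb1c, 1039 than Ddit4 and 845 than Bahcc1. In replicate 2 these numbers were 1455, 924, 1288 and 840. Uncx and Klrb1c thus lay low among these genes in replicate 1. Adamts18 had 21 distal shared peaks among the lowest 5% of scores in both libraries, and the other 4 genes had 0, against 0.228% of all distal shared peaks.

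**Figure D3:**
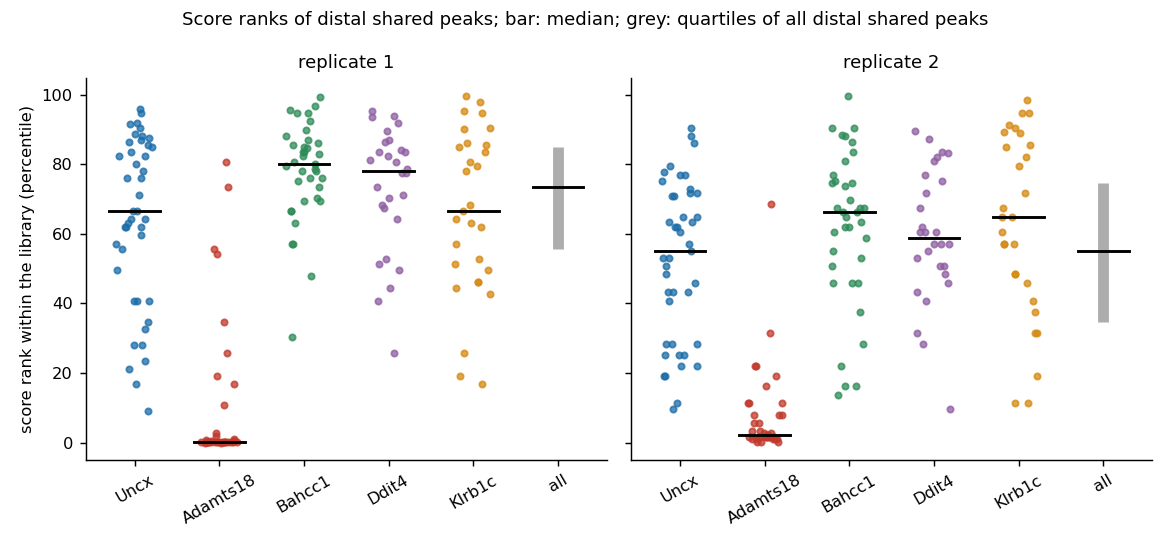
Score rank (y axis, percentile within the library) of each distal shared peak at the 5 genes, in replicate 1 on the left and in the overlapping replicate 2 peak on the right. Bars are medians, and the grey bar gives the quartiles over all distal shared peaks (55.7 and 85.1 in replicate 1, 34.6 and 74.5 in replicate 2). Most Adamts18 points lie near the floor in both libraries, with medians of 0.156 and 2.29, and others lie higher.

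Most of the low scores of Adamts18 lay in and just beside 1 intronic stretch. In the 19830 bp that hold 32 of its distal shared peaks, at chr8:113801816-113821645, replicate 1 had 37 distal peaks with scores of 6 to 50 and a median of 13. Replicate 2 had 44 there, with scores of 2 to 20 and a median of 7. In the rest of the window, replicate 1 had 12 distal peaks with scores of 28 to 78 and a median of 34.5, and none was in the lowest 5% of scores of its library. Replicate 2 had 16 there, with scores of 3 to 41 and a median of 9, and 10 of these were in the lowest 5%. The low peaks of replicate 2 thus ran on past the end of the stretch. Without the stretch, 5 distal shared peaks were left at Adamts18. Scores under 12 were rare in replicate 1, where 279 peaks of the library had one, and 17 of these lay in the Adamts18 window. Joined across gaps of up to 50 kb, peaks under 12, a limit chosen after the scores were seen, formed 171 clusters, and the largest, with 37 peaks at chr8:113766416-113815765, reached into this stretch from outside the window. In replicate 2, where 7483 peaks scored under 12, the largest of 2659 such clusters was again here, with 90 peaks at chr8:113761656-113824465.

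Hotspot cover of the Adamts18 window was within the range of the other 4 genes, while its peak scores were not. Hotspot cover was 15.1% of the window at Adamts18 in replicate 1 and 18.8% in replicate 2. It was 22.8% and 18.1% at Uncx, 25.8% and 24.5% at Bahcc1, 16.3% and 10.96% at Ddit4 and 10.6% and 10.2% at Klrb1c, against medians over all protein-coding genes of 4.56% and 2.82% in replicates 1 and 2. Among the 1973 genes with 10 or more distal shared peaks the medians were 9.01% and 5.72%. Of these genes, 621 had higher cover than Klrb1c in replicate 1 and 181 in replicate 2, and fewer had higher cover than each of the other 4. Within the Adamts18 stretch hotspots covered 51.7% and 72.2%, against 87.9% and 66.3% in the dense part of Uncx, 70.7% and 68.7% at Bahcc1, 45.7% and 37.7% at Ddit4 and 41.1% and 39.4% at Klrb1c. The stretch at Adamts18 was divided into 27 hotspots in replicate 1 and 35 in replicate 2, of which 5 and 9 had the highest −log10 q-value in the files, 100. Uncx had 18 and 30 hotspots in its dense part, with 11 and 7 at that value.

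Nearly all distal shared peaks sat inside a hotspot of their library, and Klrb1c was lowest in this. In replicate 1 all peaks of Uncx, Adamts18, Bahcc1 and Ddit4 did so and 26 of 29 at Klrb1c, against 99.4% of all distal shared peaks. In replicate 2 the counts were 40 of 43 at Uncx, 33 of 34 at Adamts18, 35 of 36 at Bahcc1, 28 of 29 at Ddit4 and 24 of 28 at Klrb1c, against 96.9%. Peaks in a hotspot with a −log10 q-value of 100 numbered 12 of 37 at Adamts18 in replicate 1, and 33 of 43 at Uncx, 20 of 37 at Bahcc1, 21 of 28 at Ddit4 and 23 of 29 at Klrb1c, against 71.3%. In replicate 2 they numbered 12 of 34 at Adamts18, 19 of 43 at Uncx, 16 of 36 at Bahcc1, 9 of 29 at Ddit4 and 16 of 28 at Klrb1c, against 31.9%.

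The shares of distal peaks found in both libraries are given with counting intervals as a description of the 5 genes. Of the distal peaks of replicate 1, 82.7% were shared at Uncx (Wilson 95% interval 70.3% to 90.6%), 75.5% at Adamts18 (61.9% to 85.4%), 71.2% at Bahcc1 (57.7% to 81.7%), 59.6% at Ddit4 (45.3% to 72.4%) and 78.4% at Klrb1c (62.8% to 88.6%), against 37.2% of all distal peaks of that library. Of the distal peaks of replicate 2, 75.4% were shared at Uncx (62.9% to 84.8%), 56.7% at Adamts18 (44.1% to 68.4%), 70.6% at Bahcc1 (57% to 81.3%), 82.9% at Ddit4 (67.3% to 91.9%) and 71.8% at Klrb1c (56.2% to 83.5%), against 76.5%. The intervals cover counting error only and treat peaks as independent, although some overlap or are copies, and the genes were chosen on shared peaks. Averaged over both libraries, the share was 79.1% at Uncx, 66.1% at Adamts18, 70.9% at Bahcc1, 71.2% at Ddit4 and 75.1% at Klrb1c. With 75 bp of overlap required it was 60.7%, 40.8%, 61.2%, 71.2% and 52.7% in the same order. The shares over all distal peaks are for 1 bp, which crowded peaks may meet more easily, and this was not tested.

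Peaks of Uncx, Bahcc1 and Ddit4 were richer in GC than those of Klrb1c and Adamts18, and so were their whole windows. The windows had 53.1% GC at Bahcc1, 49.9% at Uncx, 48.9% at Ddit4, 43.8% at Klrb1c and 43.7% at Adamts18, the same order as the peaks. Median GC content of the distal shared peaks was 55.3% at Uncx, 60.7% at Bahcc1, 55.0% at Ddit4, 50% at Klrb1c and 46.7% at Adamts18, against 50% over all distal shared peaks with quartiles of 45.3% and 54.7%. Among the 1973 genes with 10 or more distal shared peaks the median of this value was 54%, near those of Uncx and Ddit4. Peaks with 60% GC or more numbered 12 of 43 at Uncx, 19 of 37 at Bahcc1, 5 of 28 at Ddit4, 1 of 29 at Klrb1c and 0 of 37 at Adamts18, against 8.87% of all. The ratio of observed to expected CpG dinucleotides, which is low where methylated CpG has decayed, had medians of 0.568 at Uncx, 0.429 at Bahcc1, 0.382 at Ddit4, 0.496 at Klrb1c and 0.306 at Adamts18, against 0.267 over all. A ratio of 0.6 or more was found in 21 of 43 peaks at Uncx, 14 of 37 at Bahcc1, 5 of 28 at Ddit4, 12 of 29 at Klrb1c and 4 of 37 at Adamts18, against 11.8% of all. Klrb1c thus combined average GC content with many CpG-rich peaks.

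**Figure D4:**
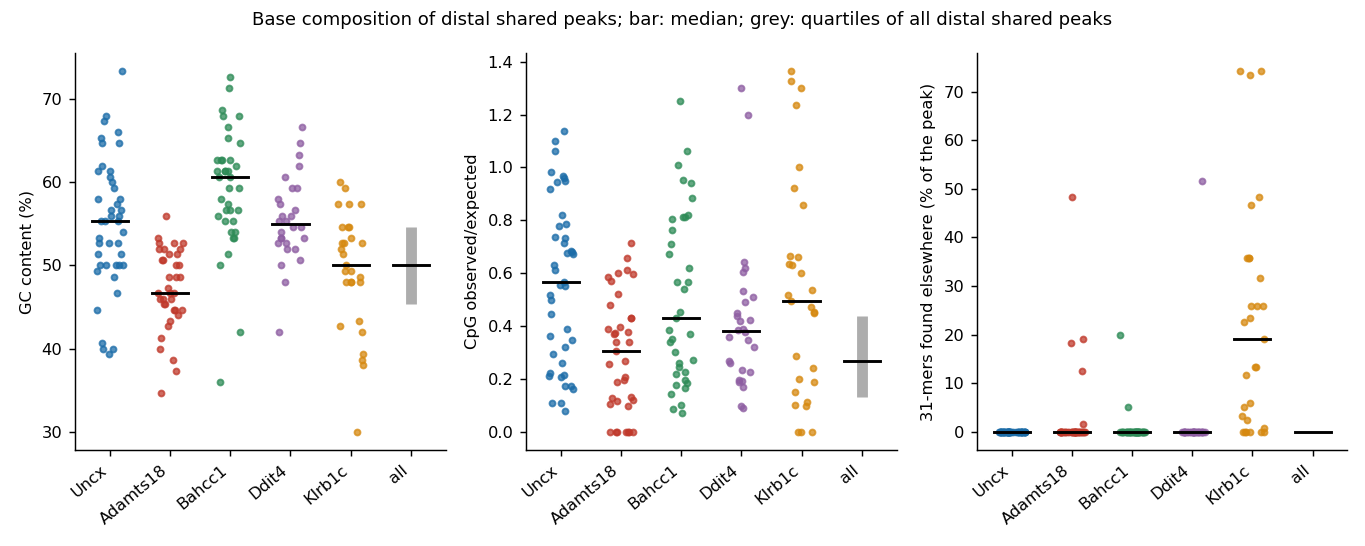
GC content (%), CpG observed/expected ratio and the percent of each peak's 31-base words that occur elsewhere in the assembled chromosomes (y axes), one point per distal shared peak at the 5 genes. Bars are medians and the grey bar gives the quartiles over all distal shared peaks, which are 0 in the right panel. Bahcc1 is highest in GC content with a median of 60.7%, and Klrb1c is highest in words found elsewhere.

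None of the 174 distal shared peaks was called a tandem repeat, meaning that no peak matched the sequence 1 to 2000 bp beside it at 70% or more of its positions, against 0.336% of all distal shared peaks. The nearest to the limit was a Ddit4 peak 9303 bp downstream of the start, with 69.3% identity at a shift of 4 bp. It scored 42 and 31 in replicates 1 and 2, and 90.7% of it was repeat-masked. At the other 4 genes the highest identity was 50% or less. Repeat-masked bases made up a mean of 18.5% of the distal shared peaks at Adamts18, 19.6% at Klrb1c, 10.7% at Ddit4, 8.05% at Uncx and 4.09% at Bahcc1, against 8.43% over all. Peaks masked over more than 50% of their bases numbered 4 of 37 at Adamts18, 3 of 29 at Klrb1c, 1 of 28 at Ddit4, 1 of 43 at Uncx and 0 of 37 at Bahcc1, against 2.62%. Few 16-base words of a peak recurred within 10 kb of it, with means of 0% at Uncx and Bahcc1, 0.0200% at Adamts18, 0.423% at Ddit4 and 0.332% at Klrb1c, against 0.483% over all distal shared peaks. Over all distal peaks of replicate 2, shared or not, these means were 5.57% at Klrb1c and 1.41% at Adamts18, and over all those of replicate 1 they were 0.260% and 0.0151%. All 5 Adamts18 peaks of replicate 2 with a recurring word were ones that replicate 1 lacks, whereas at Klrb1c such words lay in both shared and unshared peaks.

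Many Klrb1c peaks instead had a copy of their sequence farther away. Of its 29 distal shared peaks, 15 matched another place 2 to 100 kb away at 70% identity or more, against 0.789% of all distal shared peaks. Adamts18 had 1 such peak and Uncx, Bahcc1 and Ddit4 had 0. At Klrb1c all 15 matches lay 38324 to 38915 bp away. They linked the group 18 to 35 kb downstream of the start with the group 9 to 20 kb upstream of it, and 7 peaks of the left group had a peak within 85 bp of the place they match, at 60% identity or more, in the right group. The identity of these 7 pairs was between 63.3% and 99.3%, with a median of 90.7%.

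The paired copies at Klrb1c had similar scores in both libraries. In the pair printed above, the right copy scored 119 and the left copy 115 in replicate 1, and 94 and 74 in replicate 2. The strongest pair scored 144 on the right and 135 on the left in replicate 1, and 114 and 95 in replicate 2. The pair with the highest identity, 99.3%, scored 60 on the right and 48 on the left in replicate 1, and 33 and 28 in replicate 2. Over the 7 pairs the scores differed by at most 12 in replicate 1 and 20 in replicate 2, and the right copy was higher in 3 pairs in replicate 1 and 4 in replicate 2. Peaks of a pair share most of their sequence, so they are not independent sites.

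**Figure D5:**
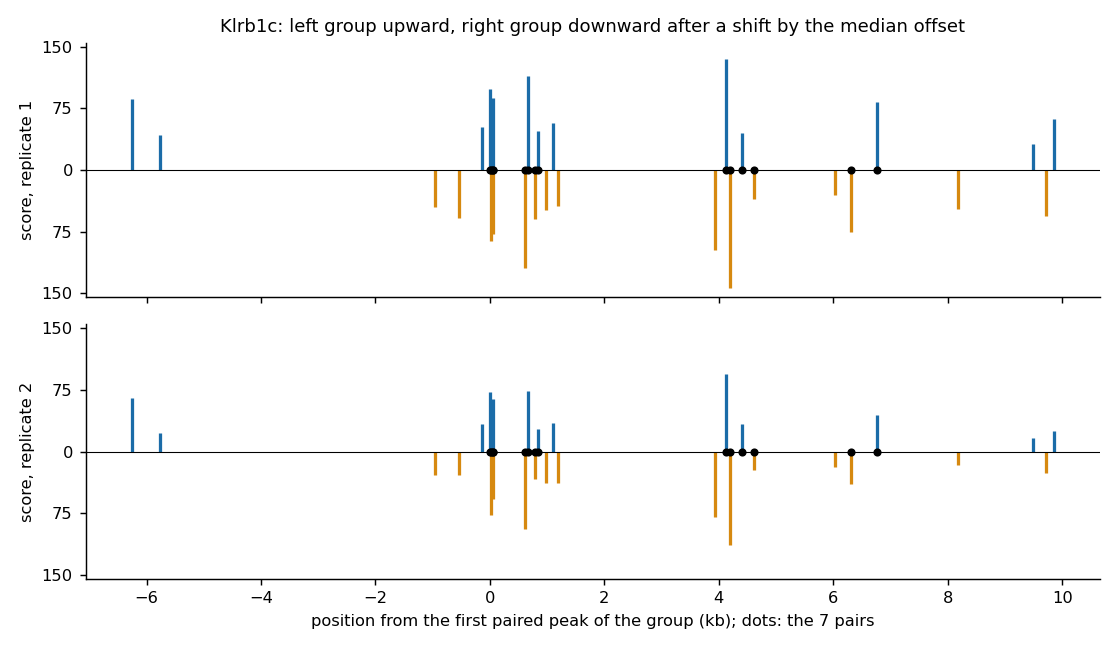
Scores of the distal shared peaks of the left group (blue, upward) and the right group (orange, downward) at Klrb1c, in replicate 1 above and replicate 2 below (y axes), against position in kb from the first paired peak, after the right group was moved by the median offset. Black dots mark the peaks of the 7 pairs. Tall peaks of one group face tall peaks of the other, such as 144 facing 135 in replicate 1.

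Sequence found elsewhere in the genome was more frequent at Klrb1c than at the other 4 genes. Words of 31 bases that occur again in the assembled chromosomes began at 22.7% of positions in the Klrb1c window, 8.44% at Uncx, 4.47% at Adamts18, 4.57% at Bahcc1 and 11.3% at Ddit4. At least 1 such word lay in 23 of 29 distal shared peaks at Klrb1c, 5 of 37 at Adamts18, 2 of 37 at Bahcc1, 1 of 28 at Ddit4 and 0 of 43 at Uncx, against 5.45% of all distal shared peaks. The mean share of a peak's words was 22.6% at Klrb1c, 2.70% at Adamts18, 0.676% at Bahcc1, 1.85% at Ddit4 and 0% at Uncx, against 1.23% over all. Without peaks that hold such a word, 6 distal shared peaks remained at Klrb1c, 32 at Adamts18, 35 at Bahcc1, 27 at Ddit4 and 43 at Uncx.

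The hotspots of Klrb1c also ended at the same bases in both libraries far more often than elsewhere. Of its 34 hotspots in replicate 1, 11 had the same start and end as a hotspot of replicate 2, 18 shared a start and 17 an end. Over all 231347 hotspots of replicate 1, 4010 shared a start and 3846 an end. Uncx, Adamts18, Bahcc1 and Ddit4 had 1, 1, 0 and 1 shared starts and 2, 1, 1 and 0 shared ends. The other 4 genes had 0 with both ends in common, against 0.313% of all replicate 1 hotspots. Between the hotspots of Klrb1c lay 19 gaps of 100 bp or less, and 97.7% of the 709 bases in them began a 31-base word found elsewhere, against 16.6% of the bases inside hotspots of both libraries and 23.5% of those outside hotspots. In the short gaps of Uncx this share was 15.6% of 390 bases, at Adamts18 7.52% of 359, at Bahcc1 0% of 200 and at Ddit4 0% of 49. How reads with more than 1 place in the genome were treated is not given in the sources used here, and the part of this in the Klrb1c calls was not tested.

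Short motif cores were counted on both strands of the 150 bp peaks as a description of their letters. The CTCF core AGGNGGC occurred in 14 of 43 peaks at Uncx, 2 of 37 at Adamts18, 3 of 37 at Bahcc1, 5 of 28 at Ddit4 and 5 of 29 at Klrb1c, against 18.4% of all distal shared peaks. CTCF is the main insulator protein. The homeodomain core TAATTA occurred in 7 peaks at Uncx, 2 at Bahcc1 and 0 at the other 3, against 6.85% of all. The GC box GGGCGG, bound by SP and KLF factors, occurred in 11 peaks at Uncx, 2 at Adamts18, 5 at Bahcc1, 7 at Ddit4 and 3 at Klrb1c, against 6.12% of all. The NFI core TTGGCA occurred in 3, 3, 4, 5 and 0 peaks of Uncx, Adamts18, Bahcc1, Ddit4 and Klrb1c, against 16.2%, and the E-box CAGCTG in 4, 2, 7, 6 and 2, against 16.6%. Rarer cores were the RFX core GTTGCCA with 1, 2, 2, 1 and 0 peaks against 4.98%, the SOX core AACAAAG with 2, 1, 0, 3 and 1 against 4.87%, and the octamer ATGCAAAT of POU factors with 0, 0, 1, 1 and 0 against 1.78%. The NFI and RFX cores share letters, so their matches can overlap.

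Relatives of the 5 genes mostly had few distal shared peaks. Of 24 paired-class homeobox genes matched from a list of 25, Uncx had the highest count with 43. Their median was 5.5, and 13 of the 24 had a promoter peak in both libraries, against 65% of all protein-coding genes. Of 19 ADAMTS genes matched from 20, Adamts18 had 37 and Adamts2 had 11, the others 0 to 8, with a median of 5. A promoter peak in both libraries was found at 18 of the 19, against the same 65%. Of 11 BAH domain genes, Bahcc1 had 37, Tnrc18, a paralogue of Bahcc1, 19 and Rere 15, with a median of 5. Of 12 genes of stress and mTORC1 inhibition, Ddit4 had 28 and Atf4, a transcription factor of the integrated stress response, 12, with a median of 6, while the Ddit4 paralogue Ddit4l had 0.

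The natural killer gene complex had 2 further genes with 10 or more distal shared peaks besides Klrb1c. Of 18 genes matched from 19, Klrb1b had 22 and Klrb1 had 13, and the windows of Klrb1b and Klrb1c overlap, so both count some of the same peaks. The others had 0 to 7, and the median was 4, near the median of 3 over all protein-coding genes. At Klrb1 the median gap was 440 bp, and 7 of the 13 peaks had a copy 2 to 100 kb away. On average 28.3% of the 31-base words of its peaks occurred elsewhere. Clec2d was the 1 gene of this list with a promoter peak in both libraries, against 65% of all protein-coding genes.

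8 neural loci known from these data to have many distal sites served for comparison. Their counts were 34 at Rbfox3, 25 at Zic2, 21 at Zic1, 17 at Notch1 and Sox2, 16 at Slc32a1, 15 at Atoh1 and 13 at Gad1. Median scores in replicate 1 were between 49 at Zic2 and 87 at Notch1, a range that holds the medians of Uncx, Bahcc1, Ddit4 and Klrb1c and not that of Adamts18. Median gaps were 570 bp at Zic2, 650 bp at Atoh1, 740 bp at Gad1 and 780 bp at Zic1, against 650 bp at Uncx and Adamts18, and 1530 to 4680 bp at Sox2, Notch1, Rbfox3 and Slc32a1. None of the 8 had a distal shared peak in the lowest 5% of scores of both libraries or one with a copy, and the mean share of 31-base words found elsewhere was 5.45% at Gad1 and below 1% at the other 7.

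Likeness to other genes was measured over 6 values per gene, the log10 median gap, score rank, hotspot cover, GC content, repeat-masked share and tandem share, as the Euclidean distance after each was divided by its SD over the 1973 genes. Uncx was nearest to Rhbg at 0.840, Polg at 0.986 and the hindbrain transcription factor gene Zic4 at 1.16, where the median distance was 5.04. Bahcc1 was nearest to Polg, Per1 and Uncx at 2.27, 2.35 and 2.47, with a median of 6.24. Ddit4 was nearest to Zbtb42, Ccdc8 and Apc2 at 0.741, 0.757 and 0.926, with a median of 2.84. Klrb1c was nearest to Eef1a1, Mycl and Rps15 at 1.15, 1.32 and 1.36, with a median of 4.23. Adamts18 had no near neighbour: Twist1, Otp and Ferd3l followed at 5.14, 5.15 and 5.19, where the median was 8.47.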

How the data were processed

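DNase-seq peak and hotspot lists of 2 biological replicates were used as deposited, 1 list of each kind per library. The authors made each library's lists from its own mm10 alignments, per the labels and the deposited notes. For the aligner, the caller and the thresholds, names and values were not given in the sources used here. Per the file headers and values, the authors' peak files carry a whole-number score, and their hotspot files a −log10 q-value that runs from 1.30 to 6.00 or equals 100, taken as a cap. Read depth is unknown, so scores were used as ranks within a library.

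Only the 19 autosomes, X and Y were analysed. Start sites came from the basic set of GENCODE M21 and sequence from GRCm38.p6, the assembly of mm10. A peak was distal when its midpoint lay over 1 kb from every start site, and shared with 1 bp of overlap. Shared peaks keep their replicate 1 positions. Tandem matches were sought at shifts of 1 to 2000 bp, and copies without gaps at 2 to 100 kb on either strand, from shared words of 10 bases. The searches for copies, 31-base words, low-score and overlapping peaks, shared hotspot ends and dense 20 kb stretches were added after the data were seen. The measures were tested on simulated sequence and peaks with planted answers. Python 3.11.15, NumPy 2.4.6, pandas 2.3.3, SciPy 1.17.1, Numba 0.67.0 and Matplotlib 3.10.9 were used.

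The 5 genes and all gene lists were chosen with earlier results of these data known, and no test was run on them. The text names the 5 genes, every gene that starts in their windows, the next 5 by count, listed genes and the 3 nearest by the measure of likeness among genes over 1 Mb away. The values of some listed genes are not reported here.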

Additional observations from a re-analysis of the deposited data

How the results depend on the processing

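Over the 5 genes, 36 of 60 medians recomputed under other settings stayed within 1.5 times (counts) or within the SD between libraries (other values), and 24 moved. The median count of distal shared peaks was 37 and the median number of runs 23. With both scores at or above their library's median these were 19 and 15, and spacing was 1020 bp (650 bp as reported), score rank 83.5 (66.4) and GC content 55.3% (55.0%). Adamts18 then kept 1 peak, Klrb1c 17, Ddit4 19, Uncx 25 and Bahcc1 27. Windows of 20 kb gave 17 peaks, 14 runs and 22.01% hotspot cover (16.9% as reported), and 3 peaks at Adamts18. Windows of 100 kb gave 35 runs, 760 bp and 13.0%, and 64 peaks at Adamts18. An overlap of 75 bp gave 760 bp, a shared share of 58.7% (73.7%), and 22 peaks at Adamts18. Joining within 1000 bp gave 14 runs, 12-base words a recurrence of 1.05% (0.0200%), and hotspots at the cap alone 8.81% cover. Chosen after seeing the data, leaving out the dense Adamts18 stretch gave 910 bp and leaving out overlapping peaks 740 bp. Counting copies once left 21 peaks at Klrb1c. The cause was not tested.

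With all distal peaks of 1 library in place of shared ones, counts ranged from 49 to 51, runs from 23 to 26, spacing from 480 to 520 bp, rank from 56.98 to 64.3, GC content from 53.3% to 54.7%, 16-base words from 0.0151% to 0.360% and hotspot cover from 16.3% to 18.1%. Without replicate 1 Adamts18 had 60 peaks, and without replicate 2 Ddit4 had 47. Tandem calls stayed at a median of 0 under every setting run. No paired analysis was possible because there is 1 group.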

Other observations

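A cluster of low-score peaks like that of Adamts18 lay on chromosome 12, the next largest in both libraries. It held 30 of the 279 replicate 1 peaks with a score under 12, from 41279856 to 41308285, and 72 of the 7483 of replicate 2, from 41279896 to 41326505. The next cluster of replicate 1, on chromosome 13, held 4. Outside the windows of the 5 genes, Mid1 on the X chromosome had 18 of 41 distal shared peaks called tandem and 16 with a copy 2 to 100 kb away.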
